A study of Mus musculus with 7 samples.

Results

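Small leucine-rich proteoglycans are secreted matrix proteins built around a run of leucine-rich repeats, and 8 of them are described here in the mouse hippocampus: Prelp, Ogn, Dcn, Lum, Bgn, Fmod, Omd and Aspn. They were taken by symbol from a table of 21965 genes, and each of the 8 has its own row. The members were chosen by family, with the measured NIHHL minus Control differences in these counts in view, that of Prelp above all. The values of the 8 genes in that comparison are therefore a description with no test, and nothing is supported with them. RNA-seq was run on hippocampus, a brain region needed to form memories of places and events, in 4 libraries of the NIHHL group and 3 of the Control group. NIHHL mice carry hidden hearing loss, in which noise damages hearing while thresholds stay near normal, and they had been exposed to 110 dB noise for 2 h. Control mice are labelled as a blank control, and tissue was collected 1 month after induction. The labels give no strain, age or sex and no animal for a library, so the spread between libraries may be partly technical.

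Decorin, biglycan and asporin (Dcn, Bgn, Aspn) bind collagen and TGF-beta, and the first of them and biglycan carry chondroitin or dermatan sulfate chains. Lumican, fibromodulin and osteomodulin (Lum, Fmod, Omd) can carry keratan sulfate and shape collagen fibrils, and osteoglycin (Ogn, also called mimecan) does so as well. Prelp has a basic, arginine- and proline-rich start that binds heparin and heparan sulfate, and it links basement membranes to collagen. In brain this family is best known from the meninges, the sheath around vessels and the choroid plexus stroma.

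The genes lie in tandem groups in the GENCODE M21 annotation of GRCm38, the mouse build of the reference used here. Prelp (ENSMUSG00000041577, chr1:133910304-133921414, minus strand) lies between Optc, the family member opticin, 2304 bases to its left, and Fmod (ENSMUSG00000041559, chr1:134037254-134048277, plus strand), 115839 bases to its right. Dcn (ENSMUSG00000019929, chr10:97479609-97518143) and Lum (ENSMUSG00000036446, chr10:97565128-97572703) are neighbours on the plus strand with 46984 bases between them, and Kera, another gene of the family, follows Lum after 34175 bases. Aspn (ENSMUSG00000021388, chr13:49544443-49567565), Omd (ENSMUSG00000048368, chr13:49582462-49592822) and Ogn (ENSMUSG00000021390, chr13:49608046-49624501) follow each other on the plus strand with gaps of 14896 and 15223 bases. The whole trio lies inside Cenpp, a kinetochore gene on the opposite strand, and only Aspn shares exon bases with it, 7 in all. Bgn (ENSMUSG00000031375, chrX:73483602-73495933, plus strand) stands alone. Prelp shares 350 exon bases with Gm15851, an antisense transcript on the plus strand, and the sources used here do not say whether reads were assigned by strand.

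Upstream sequences were read from the RefSeq promoter table (GRCm38.p6), which holds a window for 6 of the 8 genes, Dcn and Lum having none. The neighbours Prelp and Fmod and the outer genes of the chromosome 13 trio are shown from base -250 to base -51 before the start. The aim was to set members of the same tandem group side by side. Capitals mark TATAAA and CCAAT on either strand.
Prelp, chr1:133921452-133921651, minus strand: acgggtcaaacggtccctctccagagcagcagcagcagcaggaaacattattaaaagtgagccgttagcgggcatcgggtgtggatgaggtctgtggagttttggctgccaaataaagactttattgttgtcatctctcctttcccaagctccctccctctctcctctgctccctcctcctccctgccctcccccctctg
Fmod, chr1:134037004-134037203, plus strand: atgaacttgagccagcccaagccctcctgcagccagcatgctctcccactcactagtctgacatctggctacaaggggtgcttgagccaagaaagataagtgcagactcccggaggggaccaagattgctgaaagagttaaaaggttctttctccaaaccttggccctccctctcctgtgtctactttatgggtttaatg
Aspn, chr13:49544193-49544392, plus strand: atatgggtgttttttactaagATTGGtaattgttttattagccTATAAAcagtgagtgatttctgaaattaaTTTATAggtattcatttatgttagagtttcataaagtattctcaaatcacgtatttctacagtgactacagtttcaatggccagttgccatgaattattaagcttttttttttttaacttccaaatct
Ogn, chr13:49607765-49607964, plus strand: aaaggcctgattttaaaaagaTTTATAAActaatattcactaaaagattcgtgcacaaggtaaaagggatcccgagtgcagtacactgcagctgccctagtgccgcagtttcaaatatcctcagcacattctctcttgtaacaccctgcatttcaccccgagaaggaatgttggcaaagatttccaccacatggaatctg
The pieces differ in base composition: 55.0% of the bases are G or C in Prelp, 51.0% in Fmod, 27.5% in Aspn and 42.5% in Ogn, against a median of 51.5% over 32841 promoter pieces of 200 bases. Omd stood at 41.5% and Bgn at 61.5%. Only 0.947% of all pieces were lower than that of Aspn. TATAAA was found in Aspn and Ogn, each with 2 matches, which in Ogn overlap, and in 9.14% of all pieces. CCAAT was found in Aspn and in 28.4% of all pieces, and GGGCGG in none of the 6 and in 24.6%. Letters of this kind are a description of the windows and not of binding.

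Total counts per library were between 16982202 and 21585796 in NIHHL and between 14871376 and 24515146 in Control, and 14417 genes passed the filter on low counts, all 8 members among them. Deposited counts of the members ran from 6.12 for Omd in NIHHL replicate 4 to 1366 for Dcn in NIHHL replicate 1. The libraries differ in choroid plexus content: the summed level of 18 choroid plexus epithelium markers was between 1047 and 12280 CPM (counts scaled to a common library size with TMM factors) in NIHHL and between 399.5 and 9389 CPM in Control, with none of the 18 at 0. They also differ in a trend with transcript length. Across 8383 genes, which are not independent replicates, the Spearman correlation of exon length with a gene's log2 deviation from its 7-library mean ran from -0.33 to 0.523 in NIHHL and from -0.579 to 0.45 in Control. Neuronal markers (10 genes) summed to between 8441 and 9200 CPM in NIHHL and to between 8319 and 9688 CPM in Control.

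Prelp and decorin made up most of the family's counts in every library, between 63.8% and 72.0% in NIHHL and between 66.1% and 72.0% in Control. Per exon length, Prelp was the highest of the 8 at 47.1 ± 6.98 TPM (a level per exon length, computed here from the counts and GENCODE exon lengths) in NIHHL and 33.0 ± 2.01 TPM in Control (SD, n = 4 and 3). Dcn followed at 27.5 ± 4.78 TPM in NIHHL and 26.2 ± 2.81 TPM in Control, and lay below Prelp in 7 of 7 libraries. With the longest transcript as the length, Prelp lay above Dcn in 6 of 7. Fmod, Lum, Bgn and Ogn had overlapping levels per length, with means over the 7 libraries of 10.2, 9.77, 8.53 and 7.74 TPM. Their order is not firm: Fmod was above Lum in 4 of 7 libraries and Lum above Bgn in 5 of 7. Bgn depends most on the gene model, since it would stand at 15.99 TPM with its longest transcript as the length, above Lum in 7 of 7. Aspn and Omd were lowest, at 1.52 and 1.19 TPM, with Aspn above Omd in 6 of 7.

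**Figure D1:**
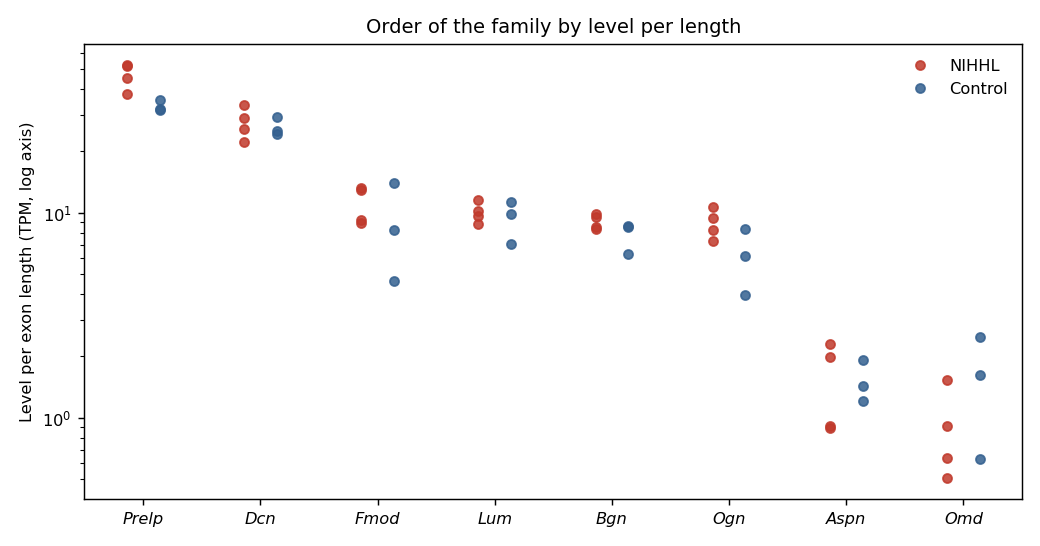
Level per exon length (TPM, log axis) of the 8 genes, ordered by their mean over 7 libraries, with 1 point per library, NIHHL left of Control. Prelp and Dcn stand above a middle group of 4 genes whose points overlap, and Aspn and Omd lie between 0.507 and 2.48 TPM.

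Prelp was the only member whose groups did not overlap. It stood at 60.9, 43.6, 52.9 and 59.2 CPM in NIHHL replicates 1 to 4 and at 36.5, 40.8 and 41.0 CPM in Control replicates 1 to 3. All NIHHL libraries lay above all Control libraries, NIHHL replicate 2 by the least. The means were 54.2 ± 7.83 CPM in NIHHL and 39.4 ± 2.57 CPM in Control (SD, n = 4 and 3), and the log2 fold change, NIHHL minus Control, was 0.46 (SE 0.11). Leaving out each library in turn gave log2 fold changes between 0.39 and 0.55. Beside this 1 of 8 members, 2.84% of all 14417 genes tested were higher in NIHHL without overlap, 2.37% were lower, and 5.2% did not overlap in either direction. No member was called at an adjusted p under 0.05 by edgeR's quasi-likelihood test, which called 0 of 14417 genes (0%). Before adjustment 523 genes had a p under 0.05, and DESeq2's Wald test called 4 genes, none of them in the family. Because Prelp was in view when the family was chosen, nothing is read from these counts.

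Several marker lists leaned to one side between the groups, and none of their genes was called. All 10 markers of ventricle-lining ependymal cells had positive log2 fold changes (median 0.50) and summed to between 73.2 and 94.0 CPM in NIHHL and to between 47.5 and 64.3 CPM in Control, with none at 0. Foxj1, the regulator of motile ciliogenesis that defines these cells, was between 17.1 and 19.7 CPM in NIHHL and between 7.42 and 15.1 CPM in Control. Oligodendrocyte markers were higher in 10 of 12 cases (median 0.19), from 8427 to 9917 CPM in NIHHL and from 7323 to 9177 CPM in Control. The 18 choroid plexus markers all had positive log2 fold changes (median 0.71) with overlapping sums, and so did the 8 astrocyte markers (median 0.07), from 2615 to 3025 CPM in NIHHL and from 2605 to 2795 CPM in Control. Meningeal fibroblast markers were positive in 16 of 21 cases (median 0.16). Endothelial markers were negative in 9 of 12 cases (median -0.09), from 381.6 to 398.7 CPM in NIHHL and from 373.2 to 428.3 CPM in Control. The part of ependymal cells in the level of Prelp was not tested, and correlations with the other lists named here are given with the marker lists. In bulk tissue, a different number of cells of a type and a different amount of RNA per cell cannot be told apart.

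Among the members that bind TGF-beta as well as collagen, Dcn was at 62.9, 47.4, 54.2 and 40.3 CPM in NIHHL replicates 1 to 4 and at 44.6, 51.9 and 55.2 CPM in Control replicates 1 to 3. The groups overlap fully, and NIHHL holds both the highest and the lowest library (log2 fold change 0.02, SE 0.14). Its sign turned in 3 of the leave-one-out fits (-0.10 without NIHHL replicate 1). Bgn, a ligand of Toll-like receptors when freed from the matrix, was at 16.4, 19.3, 18.6 and 16.2 CPM in NIHHL and at 16.4, 13.6 and 16.9 CPM in Control (log2 fold change 0.17, SE 0.11). NIHHL replicates 2 and 3 lay above every Control library and the other two within the Control range. Without Control replicate 2 the log2 fold change of Bgn was 0.08. Aspn, named for a run of aspartate near its start, was at 0.690, 1.72, 1.49 and 0.649 CPM in NIHHL and at 1.42, 1.01 and 1.09 CPM in Control, from 11 to 30 counts per library (log2 fold change -0.03, SE 0.38).

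Of the keratan sulfate members, Fmod varied most among the better-expressed genes. It was at 13.7, 13.96, 9.75 and 9.14 CPM in NIHHL replicates 1 to 4 and at 8.63, 5.45 and 14.9 CPM in Control replicates 1 to 3. Control holds both the highest and the lowest library, and the log2 fold change of 0.27 (SE 0.33) became -0.02 without Control replicate 2 and 0.75 without Control replicate 3. Lum, the proteoglycan needed for a clear cornea, was at 9.11, 6.84, 7.98 and 7.31 CPM in NIHHL and at 5.46, 9.82 and 7.78 CPM in Control (log2 fold change 0.01, SE 0.19), again with both extremes in Control. Ogn was at 7.82, 8.74, 6.77 and 5.78 CPM in NIHHL and at 3.24, 5.62 and 6.89 CPM in Control. Control replicate 1 was far below the rest, and the log2 fold change of 0.45 (SE 0.23) became 0.22 without it and 0.69 without Control replicate 3. Omd, known from bone, was at 0.460, 1.09, 0.661 and 0.354 CPM in NIHHL and at 1.15, 0.504 and 1.79 CPM in Control. Its log2 fold change was the most negative of the 8, -0.83 (SE 0.49). It rests on 6.12 to 38.1 counts per library, and it became -0.31 without Control replicate 3 and -1.22 without Control replicate 2. Counts of Omd carried decimals in 6 of 7 libraries, as estimated counts do when reads are divided between genes.

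**Figure D2:**
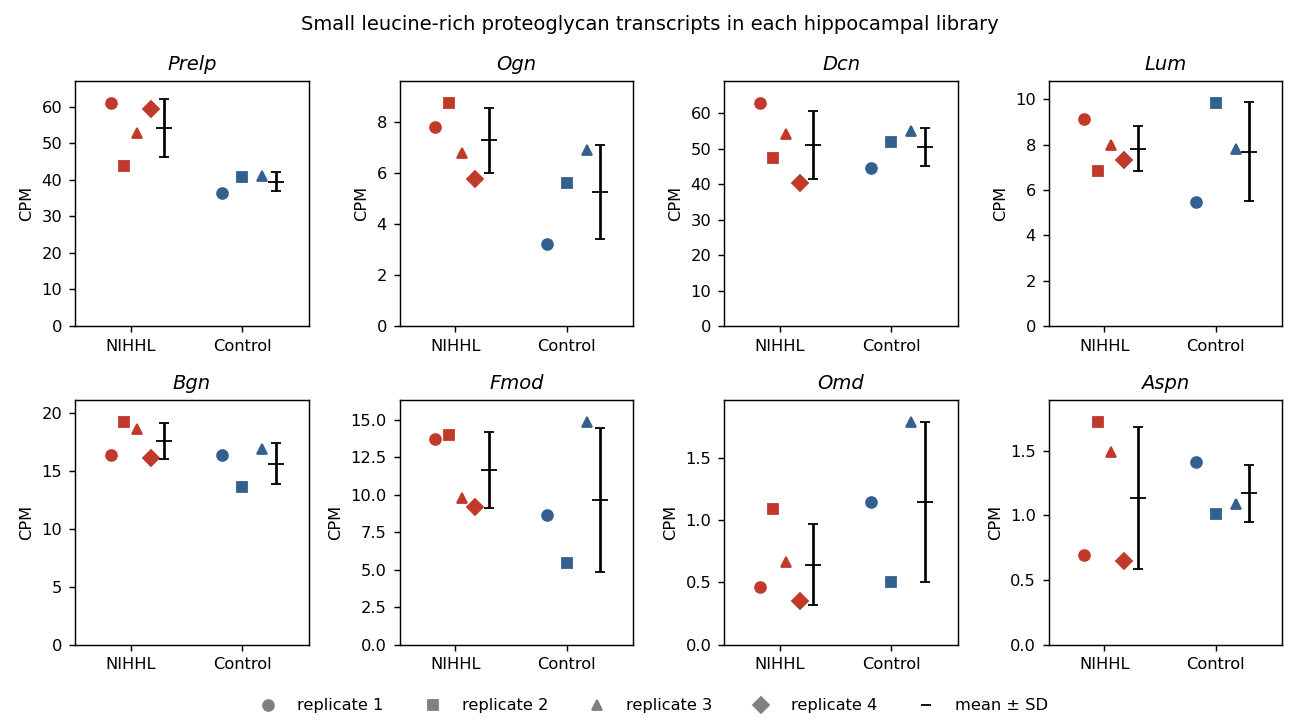
CPM of each of the 8 genes in each library, NIHHL left and Control right, with the replicate number as the marker and the mean ± SD as a bar (n = 4 and 3). Prelp is the only gene in which all NIHHL points, from 43.6 to 60.9 CPM, lie above all Control points.

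As a group, the 8 members had 6 positive and 2 negative log2 fold changes with a median of 0.10, beside -5e-04 over all genes tested, of which 49.9% were positive. Each of the 8 spread more between libraries of one group than was usual for its level. The pooled within-group SD of log2 CPM was 0.52 for Fmod, where the median of genes within 0.5 log2 units of its level was 0.17, and 0.40 against 0.21 for Ogn. For Dcn it was 0.23 against 0.11, for Prelp 0.18 against 0.11 and for Bgn 0.145 against 0.144.

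No pair of members had a correlation between libraries that passed the test. Of 28 pairs, 18 had a positive Pearson correlation of log2 CPM over the 7 libraries (median r = 0.21). For Pearson's r, 0 had a p under 0.05 before or after adjustment (exact two-sided permutation test over 5040 pairings, lowest Benjamini-Hochberg adjusted p = 0.60). Spearman's rho was 0.86 for Fmod and Ogn (exact permutation p = 0.0238, adjusted 0.464) and 0.79 for Fmod and Bgn (exact permutation p = 0.048, adjusted 0.464). In deviations from the group means, r was 0.96 for Omd and Bgn (exact permutation p = 0.00694, adjusted 0.194). For Aspn and Prelp it was -0.91 (exact permutation p = 0.0278, adjusted 0.34). The neighbours Aspn and Omd, 14896 bases apart, had r = 0.64 (exact permutation p = 0.128, adjusted p = 0.60) and Spearman's rho = 0.68 (exact permutation p = 0.109, adjusted 0.511), with r = 0.43 after leaving out the libraries farthest from the median, NIHHL replicates 2 and 4. Dcn and Lum had r = 0.63 (exact permutation p = 0.118, adjusted p = 0.60) and rho = 0.64 (exact permutation p = 0.139, adjusted 0.556), with r = 0.81 without Control replicates 1 and 2. Fmod and Prelp, neighbours on chromosome 1, had r = 0.24 (exact permutation p = 0.636, adjusted p = 0.94) and rho = 0.36 (exact permutation p = 0.444, adjusted 0.741), with r = 0.24 without Control replicates 2 and 3. Omd and Ogn, 15223 bases apart, had r = -0.08 (exact permutation p = 0.883, adjusted p = 0.95) and rho = 0.04 (exact permutation p = 0.963, adjusted 0.999), with r = -0.36 without Control replicate 3 and NIHHL replicate 4.

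No relation between a member and a marker list passed adjustment. The 8 members were set against the mean log2 CPM of 6 marker lists (48 relations), and 5 relations had an unadjusted p under 0.05, none an adjusted one (exact two-sided permutation test, Benjamini-Hochberg, lowest adjusted p = 0.062). Fmod was set against 21 tested markers of meningeal fibroblasts, the collagen-making cells of the brain's coverings, and had r = 0.90 (exact permutation p = 0.00159, adjusted 0.0619) and rho = 0.89 (exact permutation p = 0.0123, adjusted 0.229). Without Control replicate 2 and NIHHL replicate 1 r was 0.84, and it was 0.89 when deviations from the group means were used. Of all non-member genes the one most like Fmod was Col1a2, a chain of type I collagen and one of those markers (r = 0.99 over 7 libraries). Col1a2 was at 16.8, 17.5, 12.06 and 12.03 CPM in NIHHL replicates 1 to 4 and at 11.7, 8.48 and 17.4 CPM in Control replicates 1 to 3. Control replicate 2 was lowest in both genes. The list is mixed, since Igf2, Igfbp2 and Slc13a4, also on it, were at 154.1, 72.6 and 27.0 CPM in that library. In Control replicate 1 they were at 47.7, 16.1 and 8.43 CPM. The choroid plexus marker sums were 9389 CPM in Control replicate 2 and 399.5 CPM in Control replicate 1.

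Bgn had its strongest correlation with 8 astrocyte markers (r = 0.96, exact permutation p = 0.00258, adjusted 0.0619, and rho = 0.93, exact permutation p = 0.00675, adjusted 0.229). The relation had r = 0.93 without Control replicate 2 and NIHHL replicate 3, and r = 0.94 within groups. It covers a narrow range, since the astrocyte score ran from 7.60 to 7.80 in NIHHL and from 7.52 to 7.67 in Control. Lum had its strongest with the choroid plexus epithelium markers (r = 0.89, exact permutation p = 0.00556, adjusted 0.0889, and rho = 0.86, exact permutation p = 0.0238, adjusted 0.229). That correlation was r = 0.54 without Control replicate 1 and NIHHL replicate 2, the libraries with the least choroid plexus RNA, and was 0.92 within groups. The remaining relations were negative ones with 12 endothelial markers. Ogn had r = -0.85 (exact permutation p = 0.0117, adjusted 0.141) and rho = -0.86 (exact permutation p = 0.0238, adjusted 0.229), which became r = -0.35 without Control replicates 1 and 2 and so rests on them. Fmod had r = -0.79 (exact permutation p = 0.0296, adjusted 0.284) and rho = -0.82 (exact permutation p = 0.0341, adjusted 0.273), with r = -0.78 without the same libraries. Within groups r was -0.76 for Ogn (exact permutation p = 0.243) and -0.76 for Fmod (exact permutation p = 0.25). Also within groups, Omd had r = 0.885 with astrocyte markers (exact permutation p = 0.0278, adjusted 0.222). Aspn had r = -0.70 with choroid plexus markers (exact permutation p = 0.0139, adjusted 0.222) and 0.76 with vessel-wall (mural) cell markers (exact permutation p = 0.0486, adjusted 0.333).

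Over the 7 libraries Prelp had no list past an unadjusted p of 0.05. Its highest Pearson correlation was with the choroid plexus markers (r = 0.74, exact permutation p = 0.0627, adjusted 0.346, and rho = 0.61, exact permutation p = 0.167, adjusted 0.381), with r = 0.60 without Control replicate 1 and NIHHL replicate 2. In deviations from the group means it was r = 0.82 (exact permutation p = 0.0139, adjusted 0.222), which became 0.28 without the same libraries and so rests on them. Its highest Spearman correlation was with the oligodendrocyte markers (rho = 0.75, exact permutation p = 0.0663, adjusted 0.353, and r = 0.65, exact permutation p = 0.124, adjusted 0.41), with r = 0.46 without Control replicate 1 and NIHHL replicate 3. With endothelial markers r was -0.64 (exact permutation p = 0.135, adjusted 0.41) and rho -0.68 (exact permutation p = 0.109, adjusted 0.381), and r = 0.09 without Control replicates 1 and 2. Control replicates 1 to 3, with choroid plexus marker sums of 399.5, 9389 and 2384 CPM, had 36.5, 40.8 and 41.0 CPM of Prelp. NIHHL replicates 1 to 4, with sums of 12280, 1047, 6532 and 6617 CPM, had 60.9, 43.6, 52.9 and 59.2 CPM. The part of choroid plexus RNA in the level of Prelp was not tested. With meningeal fibroblast markers r was 0.57 (exact permutation p = 0.192, adjusted 0.475) and rho 0.61 (exact permutation p = 0.167, adjusted 0.381), and r = 0.23 without Control replicate 2 and NIHHL replicate 1. In deviations from the group means, r of Prelp was 0.32 with oligodendrocyte, -0.31 with endothelial and 0.28 with meningeal fibroblast markers. The values over the 7 libraries also hold the group difference of Prelp, which was in view when the family was chosen. The meningeal fibroblast markers summed to between 241.8 and 549.4 CPM in NIHHL and to between 191.7 and 353.5 CPM in Control. None was at 0 in every library, but Bnc2 had no count in NIHHL replicate 3 and Control replicate 1. A large part of the highest sums is 1 gene, Igf2, at 253.4 CPM in NIHHL replicate 1 and 154.1 CPM in Control replicate 2. Col1a2, also on the list, was lowest in Control replicate 2 (8.48 CPM), so these sums do not stand for fibroblast content. The non-member genes most like Prelp over the 7 libraries were Dennd2b, a DENN-domain protein (r = 0.98), Sdc2, the heparan sulfate proteoglycan syndecan-2 (r = 0.97), and Pbxip1 (r = 0.97). For Ogn they were Selenop, a selenium carrier, Chtf18 and Hhatl (r = 0.96 each), for Dcn Dgkq, Mthfd1 and Fto (0.96 to 0.99), and for Lum Nt5dc2, Brms1 and Klhl36 (0.98 to 0.99). Fmod was followed, after Col1a2, by Senp1 and Pdlim3 (0.98 each), Bgn by Lpin2, Phf11d and Adgb (0.97 to 0.98), Omd by Actn3, Casp1 and Zfp516 (all 0.99), and Aspn by Ppic, Thap12 and Rbbp9 (0.96 to 0.98). Each was the best among 14417 genes, a choice that by itself gives a high r.

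**Figure D3:**
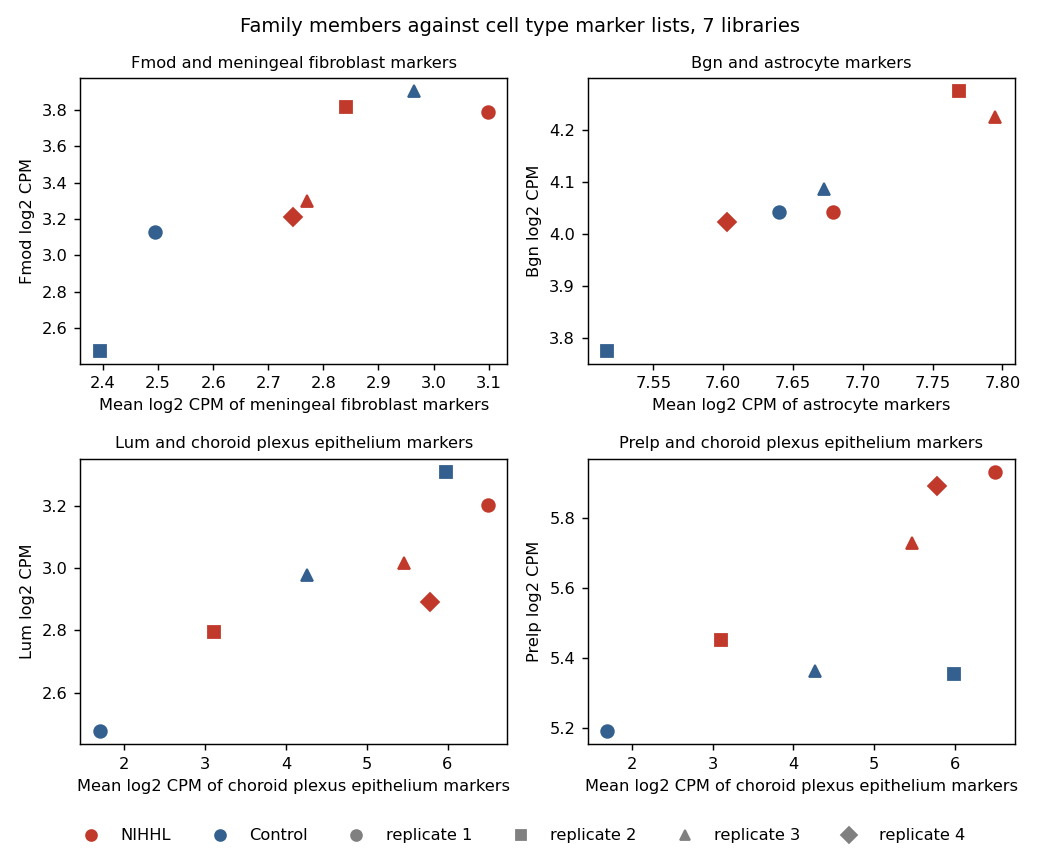
Log2 CPM of Fmod, Bgn, Lum and Prelp (vertical) against the mean log2 CPM of a marker list (horizontal), 1 point per library, NIHHL red and Control blue, with the replicate number as the marker. Fmod and Bgn increase with their lists (r = 0.90 and 0.96), and Lum and Prelp have r = 0.89 and 0.74 with the choroid plexus score. None of these relations passed adjustment.

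Other genes of the family and its surroundings were compared between the groups with the same edgeR fit, adjusted over all genes. Of 81 genes in 8 lists, 73 passed the filter and 0 were called (smallest adjusted p = 0.996). DESeq2's Wald test also called 0. Before adjustment 3 of the 73 had an edgeR p under 0.05, beside 523 of all 14417 genes tested. In 2 of the 73 NIHHL was higher without overlap and in 0 it was lower, beside 2.84% and 2.37% of all genes tested. The median log2 fold change of the 73 was 0.07, beside -5e-04 over all genes tested, of which 49.9% were positive. Of 10 further small leucine-rich proteoglycans 6 passed the filter, all 6 with positive log2 fold changes (median 0.20), and 0 were called. Tsku, a secreted inhibitor of BMP and Wnt signals, had the smallest p of them: 3.96, 5.06, 4.02 and 4.60 CPM in NIHHL replicates 1 to 4 and 2.23, 2.10 and 3.40 CPM in Control replicates 1 to 3. The groups did not overlap, and the log2 fold change was 0.77 (SE 0.21, edgeR unadjusted p = 0.00361, adjusted p = 0.996). The log2 fold change was 0.18 (SE 0.15) for Ecm2, 0.15 (SE 0.16) for Chadl, with Epyc, Nyx and Podn between 0.13 and 0.28. Chadl shares 1023 exon bases with L3mbtl2 on the opposite strand. Kera, Optc, Chad and Podnl1 were under the filter, with at most 13 counts in any library.

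Enzymes that build the sugar chains had small differences. The 6 linker genes had 3 positive and 3 negative log2 fold changes (median -0.01, but 0.02 without NIHHL replicate 2), led by the glucuronyltransferase B3gat3 (-0.21, SE 0.10). The chondroitin and dermatan sulfate list had 12 of 15 positive (median 0.05), with Chst14, a dermatan sulfotransferase, at 0.39 (SE 0.26), and the keratan sulfate list 4 of 7 (median 0.09, but -0.05 without Control replicate 3), with the galactosyltransferase B4galt1 at 0.26 (SE 0.13).

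Collagens and fibre proteins that the family binds were positive in 10 of 13 cases (median 0.15), and the median became -0.05 without Control replicate 2 and 0.06 without NIHHL replicate 2. Col14a1, a fibril-associated collagen, was at 2.90, 2.18, 2.86 and 1.71 CPM in NIHHL replicates 1 to 4 and at 1.42, 1.13 and 1.51 CPM in Control replicates 1 to 3. Its groups did not overlap (log2 fold change 0.85, SE 0.26, edgeR unadjusted p = 0.00771, adjusted p = 0.996). The TGF-beta list had 8 of 11 positive (median 0.04), with the co-receptor Tgfbr3 at 23.9 ± 5.23 CPM in NIHHL and 18.5 ± 1.36 CPM in Control (log2 fold change 0.37, SE 0.16, edgeR unadjusted p = 0.0365, adjusted p = 0.996). Signalling receptors were positive in 6 of 8 cases (median 0.13; Egfr, a receptor that decorin binds, 0.18, SE 0.13) and matrix proteases in 3 of 7 (median -0.0021; Adamts1 0.19, SE 0.14).

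**Figure D4:**
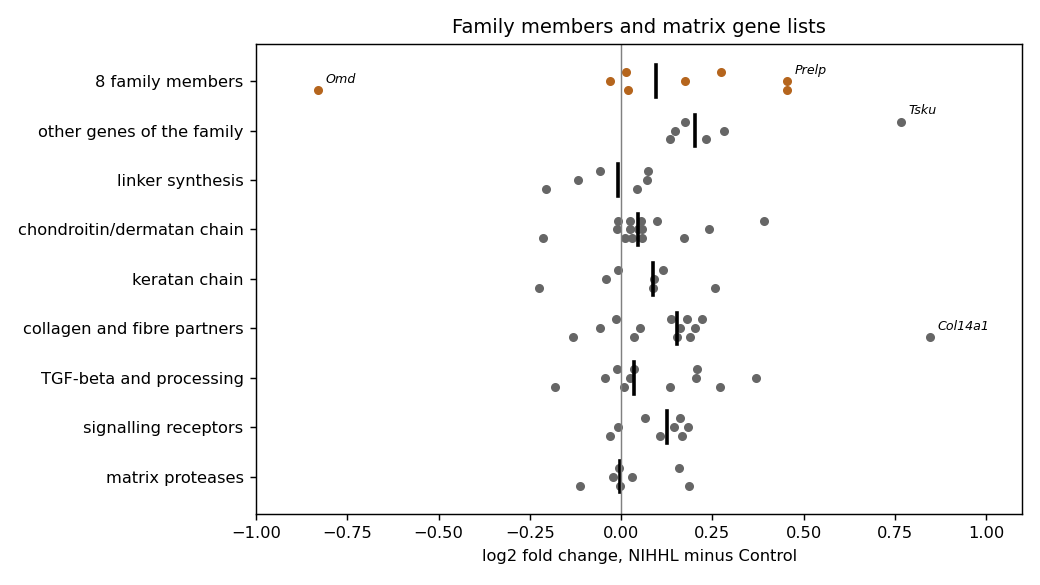
Log2 fold change, NIHHL minus Control, of the 8 family members (brown) and the tested genes of 8 matrix lists (grey), 1 point per gene, with the list median as a bar. Points lie on both sides of 0, and the 73 tested list genes had a median of 0.07, beside -5e-04 over all genes tested. Tsku (0.77) and Col14a1 (0.85) lie farthest to the right and Omd (-0.83) farthest to the left.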

How the data were processed

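RNA was measured in 7 libraries, and the authors deposited 1 table of expected counts per gene, 90.8% of them whole numbers, unscaled. Tools listed in the submitters' processing notes, with no role, are HISAT2, Bowtie2 2.2.8, DESeq2 and StringTie 1.3.1; how reads were counted, and on which build and annotation, the sources used here do not say. Per the labels' protocols, polyadenylated RNA was captured and sequenced on an Illumina instrument. Counts were rounded, filtered with filterByExpr (minimum count 10; 14417 genes kept) and scaled by TMM. NIHHL was compared with Control by edgeR 4.0.16's robust quasi-likelihood test in R 4.3.3, Benjamini-Hochberg adjusted over all genes, and DESeq2 1.42.0 was an alternative. The SE is the log2 fold change over the root of F. Log2 CPM carry a prior count of 2. Exon lengths were found for 99.5% of rows. Correlations used exact permutation tests. The fit was also run on simulated counts with set changes larger than those fitted for the members. That run therefore does not show whether differences of the members' size could be found.

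The members and lists were chosen with earlier results of these data known. Named genes were the members, up to 3 per list by p, the 3 most similar non-members of each gene (gene models passed over), neighbours and markers. The marker Nov has no row under that symbol. Counting error limits Omd and Aspn most, and p-values measure only the spread between these samples.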

Additional observations from a re-analysis of the deposited data

Results flagged for a closer look

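In groups of 4 libraries, a library was singled out when its gap to the nearest other, divided by the group's range, was above 0.829; chance does this in about 1 of 20 groups. Of 39 genes examined in NIHHL, 3 had such a library, and none of them is one of the 8 members. Tgfbr2, a TGF-beta receptor, was at 22.0 CPM in NIHHL replicate 3 and between 26.0 and 26.8 CPM in the others. Adamts4, a protease of matrix proteoglycans, was at 31.97 CPM in NIHHL replicate 4 and between 25.1 and 26.1 CPM in the others. Podnl1 was at 0.0460 CPM in NIHHL replicate 1, a single count, with no count in the others.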

How the results depend on the processing

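Scaling by DESeq2 size factors, no filter on low counts, leaving out each library, and a replicate block each left 0 genes called by edgeR (0 to 0 over the leave-one-out fits), and DESeq2's Wald test called 4. Replicate numbers mark no shared animal or day in the labels. In log2 CPM deviations from the group means, same-numbered libraries had correlations of -0.52, -0.33 and -0.04. These were taken over 8391 genes with a mean log2 CPM above 4. With the replicate block 0 genes were called, and the log2 fold changes were 0.40 for Prelp, 0.61 for Ogn, 0.46 for Fmod and -0.56 for Omd.

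The sign was kept in 11 of 11 alternatives for Prelp, Ogn, Bgn and Omd, in 10 for Fmod, 9 for Lum, 8 for Dcn and 7 for Aspn. The alternatives reuse the same libraries, and the members were chosen with this comparison in view, so a kept sign supports nothing. No alternative moved a member by more than its within-group SD. In groups this small, leaving out a library can hardly move it that far, so this measure does not show stability. Over the alternatives the log2 fold change ran from -0.02 to 0.75 for Fmod and from -1.22 to -0.31 for Omd. Correlations past adjustment stayed at 0 among pairs and marker relations with another prior count, size factors, within groups and without each library; the lowest adjusted p for markers was then 0.0524. The median of the TGF-beta list was 0.12 without Control replicate 1 and 0.13 without Control replicate 2, and that of the proteases 0.11 without Control replicate 3; the cause was not tested. Over the leave-one-out fits the list medians ran from 0.14 to 0.28 for other genes of the family, -0.05 to 0.02 for linker synthesis, 0.0036 to 0.08 for chondroitin and dermatan sulfate, -0.05 to 0.10 for keratan sulfate, -0.05 to 0.22 for collagens, 0.05 to 0.13 for TGF-beta, 0.05 to 0.16 for receptors and -0.02 to 0.11 for proteases, so the sign of 4 of these 8 medians depended on the libraries used.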
